A study of Schizosaccharomyces pombe with 6 samples.

Results

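The 6 genes described here are hsp16, gpx1, ish1, atf1, trx2 and ubi4, stress-response genes of fission yeast (Schizosaccharomyces pombe). At these genes the ratio of newly made histone H3 to input DNA differed between arrays, though not to a like degree. The range over the gene body was smallest at trx2, where it ranked 374th of 926 genes. The 6 genes were chosen by name with the measured ratios of these same 6 arrays in view, so their own levels, spreads and differences are given as a description. They were part of the fit across all genes, but since that fit uses the values they were chosen on, its calls on them are counted and nothing is read from them. They are 6 of 926 genes whose body could be measured, and with their 500 upstream bases they hold 267 of the 43993 probes. Each of the 6 passed the minimum of 2 probes, and no filter on low signal was applied.

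The data are 6 dual-colour tiling arrays on which DNA bound to FLAG-tagged histone H3 (Cy5 dye) was hybridised together with whole-cell extract DNA (Cy3 dye). The groups are wild type (WT, 3 arrays) and the mutants amo1D, a deletion of amo1 that encodes a protein of the nuclear rim, rix1E414K, a mutant of the rixosome subunit Rix1, and pob3D, a deletion of the gene for a subunit of the histone chaperone FACT (1 array each). All 4 groups carried the plasmid pINV1-H3.2-FLAG, in which a promoter induced by sucrose drives the tagged histone, so the tagged H3 came on top of the cells' own H3. Cells in medium without leucine and with 8% glucose received 15 mM hydroxyurea, which stalls DNA replication, for 4 h. They then spent 2 h in 4% sucrose, still with the drug, before fixation in 1% formaldehyde for 20 min and shearing to 400 to 600 bp. Both DNA samples were amplified by random-primed PCR before labelling. All cultures had therefore gone through the drug and the change of carbon source, and no culture without them was measured. Whether the 3 WT samples were separate cultures is not stated in the labels, so their spread may be technical.

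The level of a gene is the mean, over the 60-base probes centred in it, of log2 of Cy5 over Cy3, after subtraction of the array's median probe. A level of 0 is that of the median probe. At a higher level the tagged, newly made H3 was more abundant per input DNA. Total H3 was not measured on these arrays, so the level is not a share of H3. Median processed signals ran from 1018 to 1150 in Cy5 and from 993.2 to 1145 in Cy3. At least 99.79% of probes were well above background in both channels, and 0 spots were saturated. The slides held a mutant and a WT array each. WT replicate 1 was paired in this way with amo1D, WT replicate 2 with rix1E414K and WT replicate 3 with pob3D. The mutant of amo1 could be checked: the Cy3 signal over amo1, on the log2 scale relative to the array median, was -9.41 on the amo1D array and between -0.91 and -0.86 on the 3 WT arrays. The genes rix1 and pob3 were not among those measured.

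Fission yeast answers heat, oxidants, osmotic shock and starvation largely through 1 pathway, in which the MAP kinase Sty1 activates the transcription factor Atf1. The factors Pap1 and Hsf1 answer oxidants and heat. Transcription through a gene displaces nucleosomes, and the gaps can be refilled with histones made at any time in the cell cycle, so deposition of tagged H3 during a replication block is used as a measure of nucleosome turnover. Chaperones such as FACT take nucleosomes apart and rebuild them during transcription.

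In WT the level of newly made H3 was highest over ubi4 and ish1 and lowest over trx2. The mean body levels were 0.95 ± 0.33 (SD, n = 3) for ubi4, 0.87 ± 0.38 for ish1, 0.59 ± 0.28 for gpx1, 0.22 ± 0.20 for atf1, 0.11 ± 1.15 for hsp16 and -0.14 ± 0.16 for trx2. The levels of ubi4 and ish1 were the 2nd and 4th highest of the 926 genes, whereas trx2 was 744th. Neighbours in this order were closer to each other than the larger of their SDs, with the exception of gpx1 and atf1, whose WT ranges still overlapped. The median gene had a WT mean of 0.04 and an SD of 0.08 among the WT arrays. All 6 genes lay above this median SD, from 2.07 times for trx2 to 15.0 times for hsp16, and their ranks by SD were 1 (hsp16), 10 (ish1), 18 (ubi4), 30 (gpx1), 75 (atf1) and 124 (trx2) of 926. In the 500 upstream bases hsp16 again had the largest SD of 949 windows (0.78), while the other 5 ranked from 189 to 575.

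**Figure D1:**
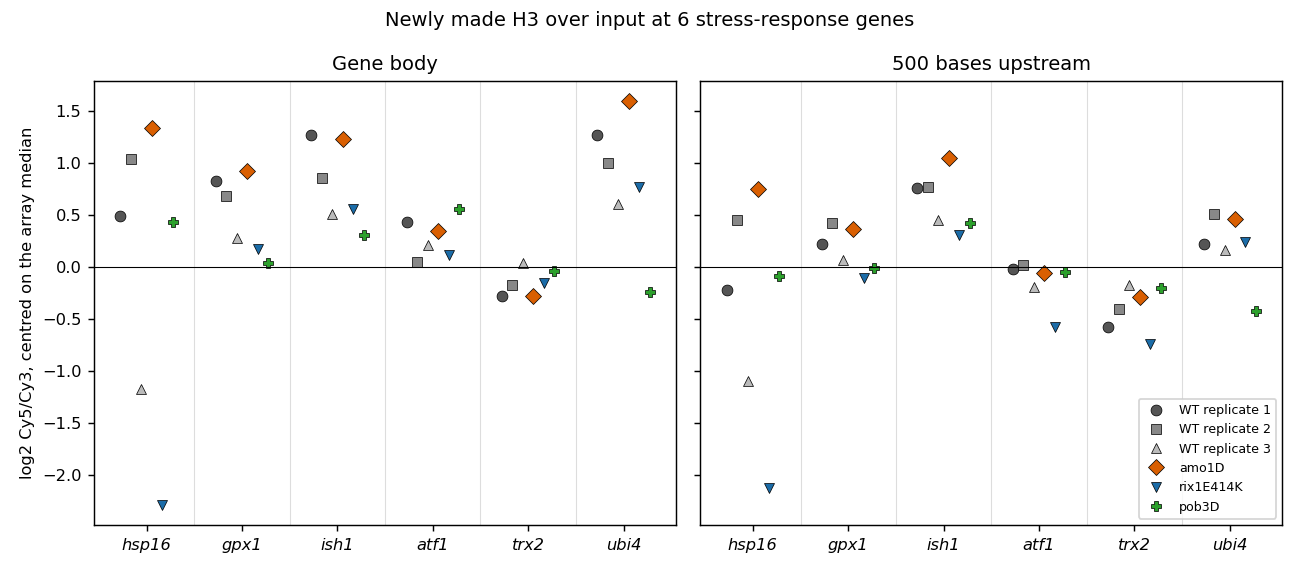
Level of newly made H3 (log2 Cy5 over Cy3, array median 0) of the 6 genes in the gene body (left) and the 500 bases upstream (right), with 1 point for each array. The points of hsp16 span 3.62 log2 units in the body, and those of trx2 span 0.31.

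**Figure D2:**
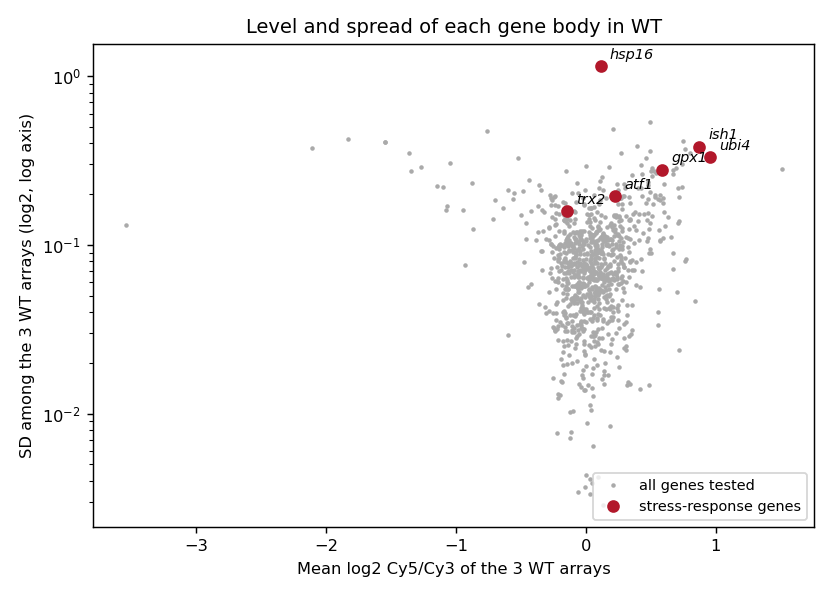
Mean level (horizontal, log2) and SD among the 3 WT arrays (vertical, log2 units on a log axis) for 926 gene bodies, with the 6 genes in red. The hsp16 gene has an SD of 1.15 against 0.53 for the next gene, and the other 5 lie among genes of moderate to high SD.

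The gene hsp16 encodes a small heat-shock protein, a chaperone that holds unfolded proteins and is strongly induced by heat and other stresses. It lies on the minus strand at chrII:2661939-2662792 in the numbering of the array, which is chrII:2660139-2660992 in the reference ASM294v3, and 18 probes fall in it. The 250 bases before its annotated start (chrII:2660993-2661242, minus strand, ASM294v3) are shown because they lie inside the stretch where the WT arrays disagreed. Capitals mark GAANNTTC, an inverted pair of heat-shock element units that begins 93 bases before the start, and a TATA box (TATAAA) that begins 33 bases before it.

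hsp16: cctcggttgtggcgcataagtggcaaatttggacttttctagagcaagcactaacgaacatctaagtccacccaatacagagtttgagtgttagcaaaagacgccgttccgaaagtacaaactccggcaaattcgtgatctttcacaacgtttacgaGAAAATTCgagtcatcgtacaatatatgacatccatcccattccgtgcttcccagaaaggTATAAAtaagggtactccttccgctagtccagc

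Matches were sought on both strands of the 500 bases before 875 protein-coding genes. The pair GAANNTTC was present in 20.46% of these windows and in 1 of the 6 genes, hsp16. The reversed pair TTCNNGAA was present in 15.66% of windows and in 0 of the 6 genes, and a longer element of 3 alternating units, which contains both pairs, in 0.69% and in 0 of the 6. TATAAA was present in 67.31% of windows and in 4 of the 6 genes: hsp16, atf1, trx2 and ubi4.

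The body level of hsp16 was 0.49 in WT replicate 1, 1.03 in WT replicate 2 and -1.18 in WT replicate 3. It was 1.33 for amo1D, -2.29 for rix1E414K and 0.43 for pob3D. The amo1D array lay above all WT arrays, rix1E414K below all of them, and pob3D among them. The span of the WT arrays alone was 4.63-fold, and that of all 6 arrays was 12.3-fold, the largest of the 926 genes. Against the WT mean, hsp16 was 2.32-fold higher in amo1D, a log2 difference of 1.22. It was 5.29-fold lower in rix1E414K, a log2 difference of -2.40, and the pob3D difference was 0.32.

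The differences within a slide were 0.84 for amo1D against WT replicate 1, -3.32 for rix1E414K against WT replicate 2 and 1.61 for pob3D against WT replicate 3. The order of the WT arrays was the same at every probe of the gene: WT replicate 2 was the highest and WT replicate 3 the lowest at 18 of 18. The rix1E414K array was below all WT arrays at 18 of 18 body probes, and amo1D was above all of them at 16 of 18. The sign of the pob3D difference was not stable: it was -0.33 without WT replicate 3 and -0.10 with a model-based background correction (normexp). Without WT replicate 3 the amo1D difference was also smaller, 0.57.

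In the 500 bases upstream, hsp16 levels were -0.23, 0.45 and -1.10 in WT replicates 1, 2 and 3, 0.75 in amo1D, -2.13 in rix1E414K and -0.09 in pob3D. As in the gene body, amo1D and WT replicate 2 were the highest arrays and WT replicate 3 and rix1E414K the lowest. The rix1E414K array was below, and amo1D above, all WT arrays at 10 of 10 upstream probes. The disagreement among the WT arrays reached beyond the gene on both sides. It was at least 1 log2 unit at 34 probes in a row, with centres from 399 bases before the start to 1251 bases after it, which is 397 bases past the end of the gene. The run over which rix1E414K lay below all WT arrays was longer, 61 probes from 1149 bases before to 1851 bases after the start, and the run over which amo1D lay above them held 33 probes.

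**Figure D3:**
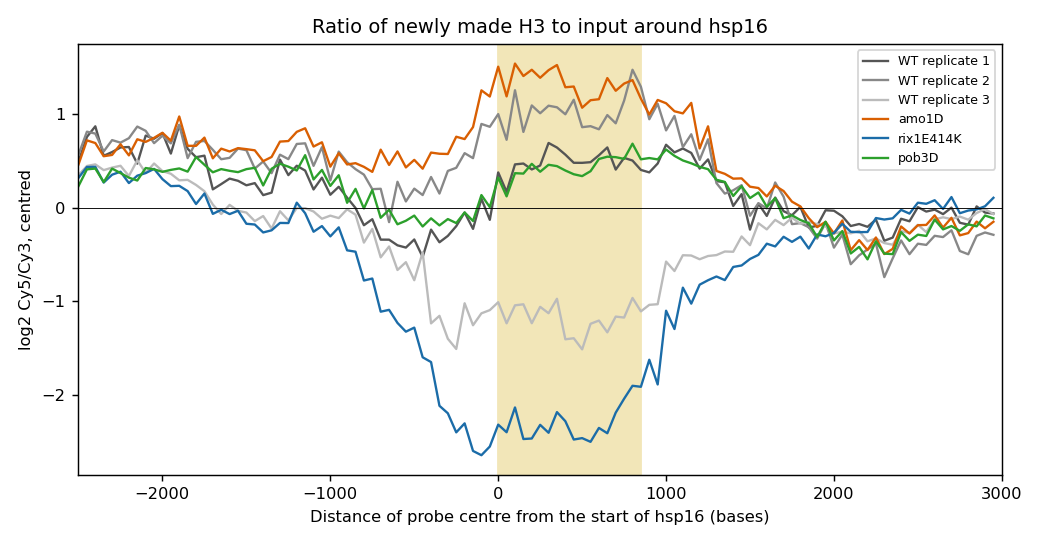
Level of newly made H3 (log2 Cy5 over Cy3, centred) of single probes around hsp16 by the distance of the probe centre from the gene start, with 1 line for each array and the gene shaded. The 6 lines part over the gene and its flanks, with rix1E414K and WT replicate 3 lowest, and lie closer together farther out on both sides.

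The flanking genes had smaller spreads. The lipid kinase gene fab1, 681 bases past the end of hsp16, had levels of -0.09, -0.28 and -0.22 in WT replicates 1, 2 and 3 (SD 0.10, 158 probes). The gene SPBC3E7.17 on the other side, with 3 probes, had 0.11, 0.50 and -0.07, which is the same order as hsp16, with an SD of 0.29.

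Both dyes moved at hsp16. On the log2 scale relative to each array's median, Cy5 over the gene body was -1.21, -0.00 and -4.35 in WT replicates 1, 2 and 3, 0.20 for amo1D, -4.70 for rix1E414K and -0.90 for pob3D. The Cy3 signal of the whole-cell extract was -1.68, -1.05 and -3.18 on the WT arrays, -1.13 for amo1D, -2.41 for rix1E414K and -1.37 for pob3D. The WT SD of the extract signal, 1.10, was also the largest of 926 genes, where the median gene had 0.08. The extract signal over hsp16 was, as a WT mean, the 5th lowest of 926 genes. The 2 arrays of lowest ratio, WT replicate 3 and rix1E414K, were thus the 2 of lowest extract signal and of lowest immunoprecipitate signal. The part of the extract signal in the differences of the ratio was not tested.

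The signal at hsp16 was still above the negative controls on every array. The median scanned Cy5 signal of its probes was 594 in WT replicate 3 and 899.5 in rix1E414K, against medians of 117.5 and 287.5 for the negative control spots, and between 4086 and 12819 on the other 4 arrays. All 18 probes were marked well above background on all 6 arrays. The ratios come from the processed signals, and these were low. The median processed Cy5 signal over hsp16 was 54.5 in WT replicate 3 and 39.6 in rix1E414K, against array medians of 1057 and 1018. How the background was treated changed the size of the rix1E414K difference: with a model-based background correction (normexp) of the scanned signals it was -0.75 in the body and -0.13 upstream, in place of -2.40 and -1.84. With no background subtraction it was -1.98 in the body.

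**Figure D4:**
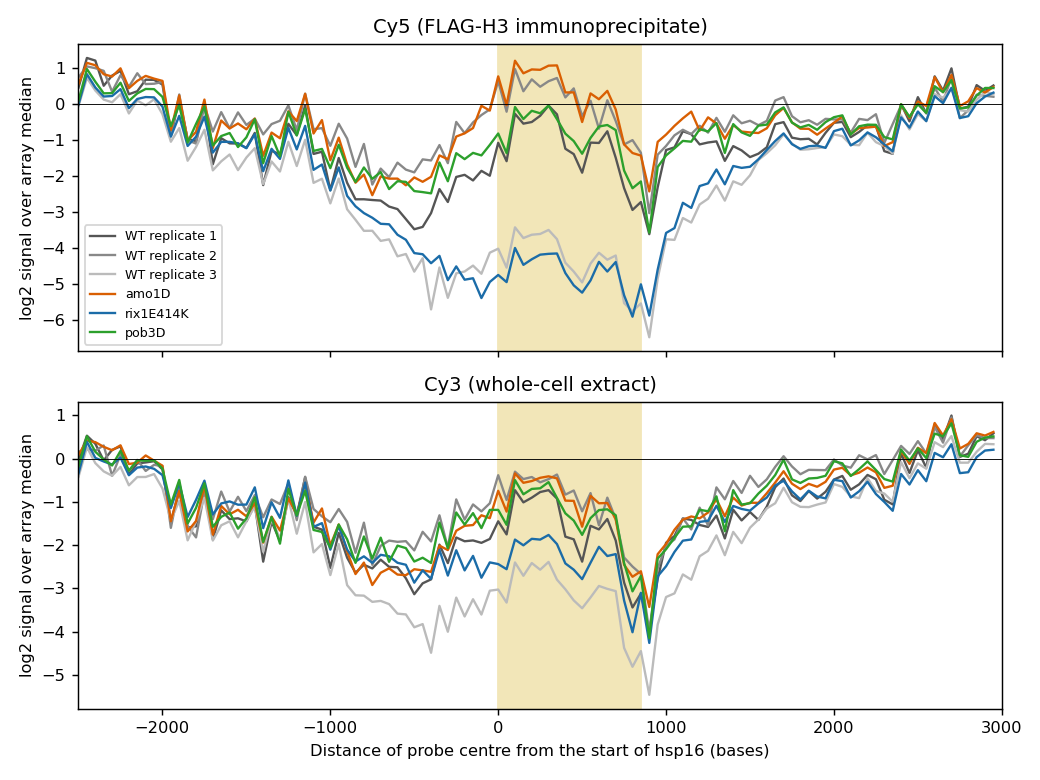
Signal of each dye around hsp16, as log2 over the array's median, by distance of the probe centre from the gene start (Cy5 above, Cy3 below, 1 line for each array, gene shaded). WT replicate 3 and rix1E414K are lowest over the gene in both dyes.

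The gene gpx1 encodes glutathione peroxidase, an enzyme that removes peroxides. It lies on the minus strand at chrII:2790663-2791387 of the array, chrII:2788863-2789587 of ASM294v3, with 14 probes. Its upstream sequence (chrII:2789588-2789837, minus strand, ASM294v3) is shown because it holds TTACGTAA, in capitals, a binding site of Pap1, beginning 119 bases before the start. This site was present in 0.57% of upstream windows, and gpx1 was the 1 of the 6 genes with it.

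gpx1: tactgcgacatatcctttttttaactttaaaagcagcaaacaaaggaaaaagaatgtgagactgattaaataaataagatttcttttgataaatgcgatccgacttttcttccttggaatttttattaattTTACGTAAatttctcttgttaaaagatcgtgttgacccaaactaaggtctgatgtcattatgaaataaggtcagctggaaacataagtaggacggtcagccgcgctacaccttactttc

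The body levels of gpx1 were 0.82, 0.67 and 0.28 in WT replicates 1, 2 and 3, 0.92 for amo1D, 0.17 for rix1E414K and 0.03 for pob3D. The amo1D array was thus just above the WT arrays, and rix1E414K and pob3D were below them. The differences from the WT mean were 0.33, -0.42 and -0.56, and the differences within a slide were 0.10, -0.50 and -0.24. WT replicate 1 was the highest and WT replicate 3 the lowest WT array at 14 of 14 probes, rix1E414K was below all WT arrays at 14 of 14 and pob3D at 12 of 14.

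The level of gpx1 rose along the gene in WT: it was 0.42 ± 0.21 over the 4 probes nearest the start and 0.71 ± 0.35 (SD, n = 3) over the last 5. Upstream, the levels were 0.22, 0.42 and 0.06 on the WT arrays, 0.36 for amo1D, -0.11 for rix1E414K and -0.01 for pob3D, and WT replicate 2 in place of WT replicate 1 was the highest WT array at 10 of 10 probes. The Cy3 signal over the body was -0.38, 0.04 and -0.37 in the WT replicates and -0.97 in pob3D, so the pob3D array was low in both dyes (Cy5 -0.90). In amo1D the Cy3 signal was -0.55, below all WT arrays, and Cy5 was 0.37 against a WT mean of 0.36. The part of the extract signal in the lower pob3D ratio and the higher amo1D ratio was not tested. The gene gem7, which shares 25 bases with the end of gpx1, had WT levels of 1.08, 0.87 and 0.36, and gtb1 on the upstream side had an SD of 0.07 among the WT arrays.

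The gene ish1 encodes a protein of the nuclear envelope that is induced by osmotic stress and starvation. It lies on the minus strand at chrII:2517925-2520513 of the array, chrII:2516125-2518713 of ASM294v3, with 52 probes. The site TGACGT, the core of the cAMP response element bound by Atf1, begins 75 bases before its start, read on the opposite strand as ACGTCA. Only the 30 bases around it are shown (chrII:2518771-2518800, minus strand, ASM294v3), with the site in capitals, because the gene hba1 ends close by.

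ish1: tcgagggagtttACGTCAgttagattatct

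TGACGT was present in 6.97% of the upstream windows and in 2 of the 6 genes, ish1 and atf1.

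The body levels of ish1 were 1.27, 0.85 and 0.50 in WT replicates 1, 2 and 3, 1.23 for amo1D, 0.55 for rix1E414K and 0.30 for pob3D. The amo1D and rix1E414K arrays lay within the WT range, and pob3D lay below it. The pob3D difference from the WT mean was -0.57, and within its slide it was -0.20. The pob3D array was below all WT arrays at 51 of 52 probes, and its difference from the WT mean was -0.37 over the 17 probes nearest the start, -0.67 over the 18 in the middle and -0.67 over the last 17. WT replicate 3 was the lowest WT array at 52 of 52 probes. The extract signal, Cy3, lay between -0.40 and -0.25 on the WT arrays, an SD of 0.09 near the median gene's 0.08. In pob3D it was -0.52, below all WT arrays, and Cy5 was -0.19 against a WT mean of 0.57. The part of the extract signal in the lower ratio was not tested.

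Upstream, ish1 levels were 0.76, 0.76 and 0.45 on the WT arrays, 1.04 for amo1D, 0.31 for rix1E414K and 0.42 for pob3D. The amo1D array was above all WT arrays at 10 of 10 upstream probes, and rix1E414K was below them at 10 of 10. Cy5 in this window was 0.81 for amo1D and 0.68 for rix1E414K, within the 0.59 to 0.88 of the WT arrays. The extract signal was -0.22 for amo1D and 0.38 for rix1E414K, outside the -0.08 to 0.13 of the WT arrays. Its part in the differences of the ratio was not tested. This upstream window falls in hba1, a gene on the same strand that ends 12 bases before ish1 starts and itself had levels of 0.52, 0.42 and 0.30 in the WT replicates. On its other side ish1 shares 633 bases with grp2, whose WT levels were 1.26, 0.99 and 0.59. Probes there belong to both genes, since the arrays read DNA without regard to strand.

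The gene atf1 encodes the transcription factor that Sty1 activates, and is itself among the genes that the pathway induces. It lies on the plus strand at chrII:1547117-1550762 of the array, chrII:1546217-1549862 of ASM294v3, and it is the longest of the 6, with 73 probes. Its upstream sequence (chrII:1545967-1546216, plus strand, ASM294v3) is shown because it holds TGACGTCA, in capitals, the full palindromic element, beginning 52 bases before the start.

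atf1: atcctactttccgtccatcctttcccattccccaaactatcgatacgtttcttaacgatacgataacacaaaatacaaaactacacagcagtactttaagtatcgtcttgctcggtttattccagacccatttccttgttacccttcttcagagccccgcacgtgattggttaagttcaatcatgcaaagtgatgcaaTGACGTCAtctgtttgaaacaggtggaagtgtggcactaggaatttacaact

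The body levels of atf1 were 0.43, 0.04 and 0.20 in WT replicates 1, 2 and 3, 0.34 for amo1D, 0.11 for rix1E414K and 0.55 for pob3D. The pob3D array lay above the WT arrays, with a difference of 0.33 from the WT mean and of 0.35 within its slide, and the other 2 mutants lay within the WT range. Cy5 over the body was 0.97 in pob3D against a WT mean of 0.79. The extract signal in pob3D was 0.39, below the 0.50 to 0.62 of the WT arrays. Its part in the higher ratio was not tested. The shape along the gene differed between arrays more than the mean did. Over the 25 probes in the middle of the gene the level was 0.82 in pob3D against 0.27 ± 0.25 (SD, n = 3) in WT. Over the last 24 probes amo1D was highest, at 0.78 against 0.35 ± 0.22. Over the 24 probes nearest the start rix1E414K was lowest, at -0.22 against 0.05 ± 0.18.

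Upstream of atf1, the levels were -0.02, 0.01 and -0.19 on the WT arrays, -0.06 for amo1D, -0.58 for rix1E414K and -0.06 for pob3D. The rix1E414K array was below all WT arrays at 10 of 10 upstream probes. Its difference of -0.51 from the WT mean was the largest of the 3 mutants there, and the extract signal on that array was the highest of the 6, at 0.49 against -0.05 to 0.37 on the WT arrays. Its part in the lower ratio was not tested. The flanking genes fic1 and isp4 had SDs of 0.11 and 0.09 among the WT arrays. In fic1 the pob3D array was again the highest, at 0.48, against WT levels of 0.26, 0.08 and 0.08.

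The gene trx2 encodes a mitochondrial thioredoxin, a small protein that keeps other proteins reduced. It lies on the minus strand at chrII:2319161-2320330 of the array, chrII:2317361-2318530 of ASM294v3, with 23 probes. The body levels were -0.28, -0.18 and 0.03 in WT replicates 1, 2 and 3, -0.28 in amo1D, -0.16 in rix1E414K and -0.04 in pob3D. All 3 mutants lay within the WT range or within 0.01 of it, and their differences from the WT mean were -0.14, -0.02 and 0.10. Over the coding sequence alone, the SD among the WT arrays was 0.09 in place of 0.16. Unlike the other 5 genes, trx2 was highest, among the WT arrays, in WT replicate 3, at 22 of 23 probes.

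Upstream of trx2, the levels were -0.58, -0.40 and -0.17 on the WT arrays, -0.29 for amo1D, -0.74 for rix1E414K and -0.21 for pob3D. The rix1E414K array was the lowest of the 6. The extract signal in this window was the 6th lowest of 949, with a WT mean of -3.48, and it was higher on the rix1E414K array at -2.03. Cy5 was higher on that array as well, at -2.77 against a WT mean of -3.87. With the normexp background correction the rix1E414K difference turned from -0.36 to 0.17. The end of trx2 shares 294 bases with srb11, which had levels of -0.49, -0.34 and -0.17 in the WT replicates, the same order as trx2, and ned8 on the upstream side had -0.57, -0.33 and -0.15.

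The gene ubi4 encodes polyubiquitin, a chain of head-to-tail ubiquitin units that is cut into single ubiquitins and tops up the supply under stress. It lies on the minus strand at chrII:1045171-1046492 of the array, chrII:1044271-1045592 of ASM294v3. Of its 27 body probes, 21 (77.8%) match the reference in more than 1 place, where a match is at least 50 bases at 90% identity or more, so their signal can come from any of the matching places. The upstream window has 10 probes of 1 match each. Its sequence (chrII:1045593-1045842, minus strand, ASM294v3) is shown because pob3D departed from WT there. Capitals mark TATAAA, read on either strand, with the nearest beginning 31 bases before the start.

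ubi4: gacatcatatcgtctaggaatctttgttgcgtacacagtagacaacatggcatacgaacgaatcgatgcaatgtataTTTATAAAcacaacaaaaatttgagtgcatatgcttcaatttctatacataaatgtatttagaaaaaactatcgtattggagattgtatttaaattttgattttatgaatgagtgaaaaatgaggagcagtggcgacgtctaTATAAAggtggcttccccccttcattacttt

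The body levels of ubi4 were 1.27, 0.99 and 0.61 in WT replicates 1, 2 and 3, 1.59 for amo1D, 0.77 for rix1E414K and -0.24 for pob3D. The pob3D array was below, and amo1D above, all WT arrays at 27 of 27 probes, and rix1E414K lay within the WT range. Against the WT mean, ubi4 was 2.29-fold lower in pob3D, a log2 difference of -1.19, and 1.55-fold higher in amo1D, a log2 difference of 0.64. Within slides the differences were -0.85 and 0.32. Over the probes of 1 match, the pob3D difference was -0.88 and the amo1D difference 0.56. The extract signal of ubi4 lay between 0.89 and 1.24 on the WT arrays and was 0.98 in pob3D, while Cy5 was between 1.81 and 2.24 on the WT arrays and 0.77 in pob3D.

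The lower level of ubi4 in pob3D began before the gene. Over the 5 probes nearest its start it was -0.72, against 0.38 ± 0.18 (SD, n = 3) in WT, and over the 5 probes farther upstream it was -0.12 against 0.20 ± 0.23. The whole upstream window had levels of 0.21, 0.50 and 0.16 on the WT arrays, 0.46 for amo1D, 0.24 for rix1E414K and -0.42 for pob3D. The extract signal there was lower in pob3D (-1.10) than the WT mean of -0.59, though not below WT replicate 1 (-1.14). The flanking genes ecm14 and erg28 had SDs of 0.07 and 0.04 among the WT arrays, and pob3D levels of 0.23 and 0.37.

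**Figure D5:**
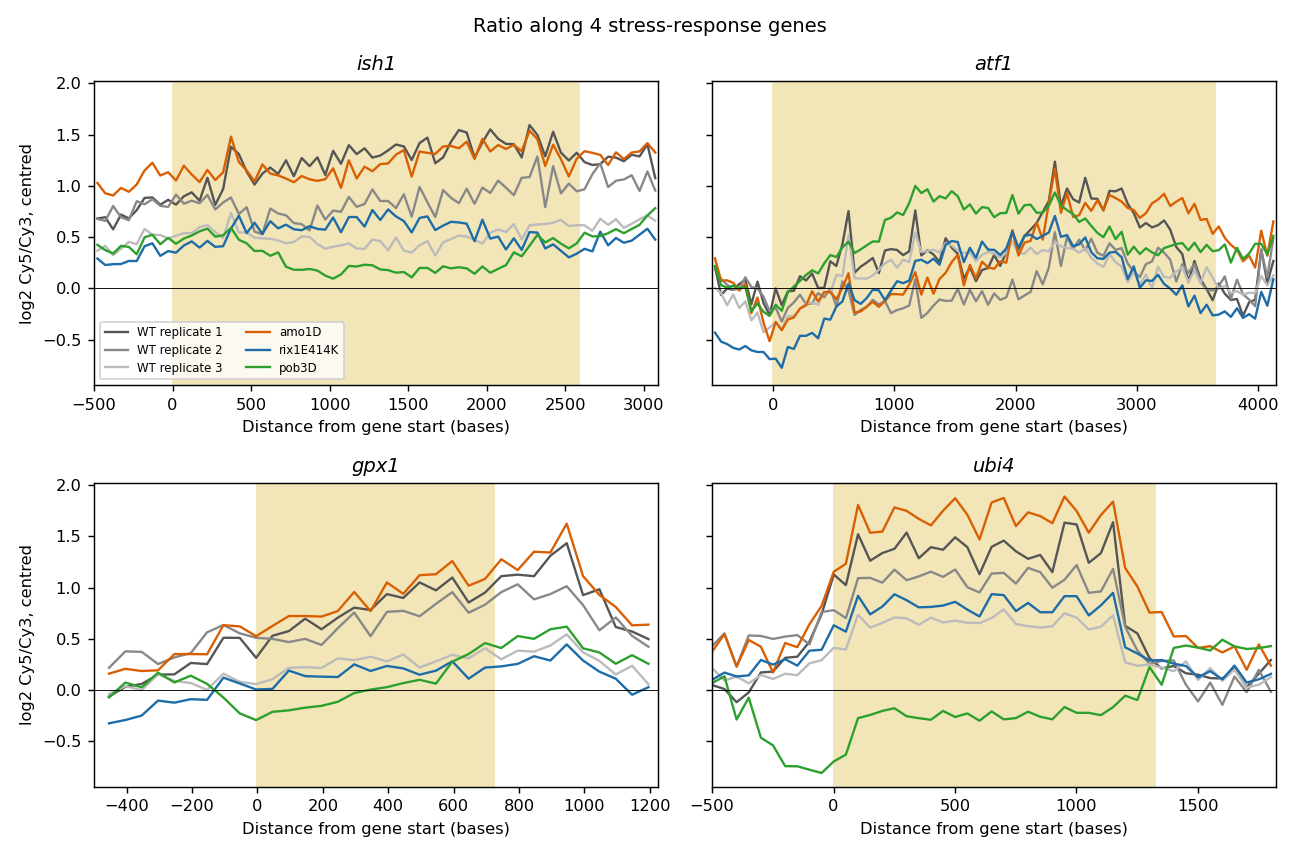
Level of newly made H3 (log2 Cy5 over Cy3, centred) of single probes along ish1, atf1, gpx1 and ubi4 by distance from the gene start, with 1 line for each array and the gene shaded. The pob3D line is lowest over ish1 and ubi4 and highest in the middle of atf1.

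The 6 genes did not move as a block. Across the 6 arrays the body levels of gpx1, ish1 and ubi4 had Pearson correlations of 0.97 (gpx1 and ish1), 0.91 (gpx1 and ubi4) and 0.91 (ish1 and ubi4). In these 3 genes amo1D or WT replicate 1 was highest and pob3D lowest. The levels of trx2 ran against them, with correlations of -0.82, -0.89 and -0.80. The hsp16 levels had correlations between -0.46 (trx2) and 0.66 (gpx1) with the others, and atf1 between -0.31 (ubi4) and 0.36 (hsp16). These are descriptions over 6 arrays that share slides in pairs, and the genes were chosen for their variation.

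The genes most like each of the 6 over the 6 arrays were sought among 77 genes with at least 4 probes and a range of at least 0.5. For hsp16 they were SPRRNA.33 (Pearson r 0.98), SPBC83.12 (0.98) and SPRRNA.27 (0.96), with ranges of only 0.59 to 0.73 log2 units against 3.62 for hsp16. For gpx1 they were grp2 (0.98), mug124 (0.98) and ish1, and for ish1 they were SPBC725.03 (0.98), gpx1 and grp2 (0.96), where grp2 shares probes with ish1. For atf1 they were rtn1 (0.996), but2 (0.97) and nep2 (0.91), all 3 highest in pob3D as atf1 was. For ubi4 they were SPBC12C2.14C (0.97), pof9 (0.93) and hmt2 (0.92), and for trx2 the likeness was weaker, with mis19 (0.80), mim2 (0.79) and SPBP23A10.11C (0.57).

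Set against all genes, the number of the 6 that lay outside the WT range is read with the share of all genes that did. In the gene body, amo1D lay above all WT arrays at 3 of the 6 (hsp16, gpx1 and ubi4), against 24.8% of 926 genes, and below at 1 (trx2), against 28.0%. The rix1E414K array lay below at 2 (hsp16 and gpx1), against 25.3%, and above at 0, against 31.5%. The pob3D array lay below at 3 (gpx1, ish1 and ubi4), against 38.9%, and above at 1 (atf1), against 27.2%. The median differences of the 6 were 0.34, -0.25 and -0.23 for amo1D, rix1E414K and pob3D, and those of all genes were -0.00, 0.00 and -0.03. With so few genes, chosen on these contrasts, nothing is read from these counts.

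In the upstream windows, rix1E414K lay below all WT arrays at 5 of the 6 (all but ubi4), against 29.0% of 949 windows, and above at 0, against 15.0%. The amo1D array lay above at 2 (hsp16 and ish1), against 33.4%, and below at 0, against 13.3%. The pob3D array lay below at 3 (gpx1, ish1 and ubi4), against 23.3%, and above at 0, against 30.2%. The median differences of the 6 were 0.15, -0.35 and -0.11, and those of all windows were 0.04, -0.03 and 0.02.

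Genes were also tested across the whole stretch with limma (1 coefficient per genotype, Benjamini-Hochberg adjusted p under 0.05). The error term rests on WT alone (2 residual degrees of freedom), and a lone mutant array is taken to have the same error. limma also moderates the variance of each gene or window toward a value pooled over all of them. A call therefore does not rest on that window's own WT spread alone. An exact permutation test of 1 array among 4 has 0.25 as its smallest one-sided p. In the gene body, limma called 0 of the 6 and 0 of 926 genes (0.0%) for each mutant, with 55 genes at an unadjusted p under 0.05 for amo1D, 71 for rix1E414K and 125 for pob3D. Upstream, it called 17 windows lower in rix1E414K, 1.79% of 949, among them 1 of the 6, hsp16, which was chosen on these same ratios, so its call is no evidence about it. It called 1 window for amo1D (0.105%) and 2 for pob3D (0.211%), all higher, and 0 of the 6 among them. The count for rix1E414K fell to 0 without WT replicate 1 and without WT replicate 2, as did that for pob3D, which was 5 without WT replicate 3. The 1 call for amo1D was lost without WT replicate 1 or 3. In the body, leaving out WT replicate 2 gave 9 calls for amo1D and 3 for pob3D, and leaving out WT replicate 3 gave 4 for rix1E414K.

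Other stress genes were taken from 4 lists of textbook members: chaperones and heat shock, redox, the Sty1 pathway, and further genes that answer to Sty1 and Atf1. The lists were chosen with earlier results of these data known, so counts on them, here and below, are a description. Of the 82 listed genes, 16 were measured and 10 of those are not among the 6. In the body, limma called 0 of these 10 in any mutant. Upstream, it called 2 of the 10 lower in rix1E414K, where 1.79% of all 949 windows were called, and 0 for the other mutants. The 2 genes were mas5, which encodes a DnaJ-type chaperone, and aha1, which encodes an activator of Hsp90.

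Upstream of mas5 the levels were 0.23, 0.53 and 0.05 in WT replicates 1, 2 and 3, 0.44 for amo1D, -0.76 for rix1E414K and 0.38 for pob3D. The rix1E414K array stood well below the rest, with a log2 difference of -1.04 from the WT mean. The SD among the WT arrays was 0.24. The limma call, which rests on 1 rix1E414K array and a moderated spread, was made under 10 of 13 other settings. Upstream of aha1 the levels were 0.15, 0.38 and 0.04 on the WT arrays, 0.52 for amo1D, -0.46 for rix1E414K and 0.50 for pob3D. The rix1E414K difference was -0.65, where the SD among the WT arrays was 0.17, and it was called under 6 of 13 other settings. The 5 measured chaperone genes outside the 6 lay below all WT arrays in rix1E414K upstream, against 29.0% of 949 windows, though cdc37 was barely below, at -0.12 in both rix1E414K and WT replicate 3. Since the list was chosen with earlier results known, nothing is read from this share. The differences of hsp78, sks2 and cdc37 were -0.40, -0.32 and -0.09 and did not pass the test. Both calls were lost with loess, without WT replicate 1 and without WT replicate 2.

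In the body, aha1 had levels of 0.80, 0.49 and 0.23 on the WT arrays, 0.54 for amo1D, -0.25 for rix1E414K and 0.37 for pob3D, so the WT arrays stood in the order seen at ish1 and ubi4. The levels of hsp78, a mitochondrial chaperone gene, were 0.36, 0.16 and -0.14 in the WT replicates, and those of mas5 were 0.46, 0.33 and 0.08. The other chaperones varied little, with SDs among the WT arrays of 0.04 for cdc37 and 0.02 for sks2. Of the Sty1 pathway, the MAP kinase kinase gene wis1 had an SD of 0.15, atf21 of 0.16 and mpr1 of 0.12. The glutathione reductase gene pgr1, the 1 measured redox gene outside the 6, had an SD of 0.09. The gene lsd90 had levels of 0.55, -0.05 and 0.67 on the WT arrays, 0.52 for amo1D, 0.77 for rix1E414K and -0.31 for pob3D, with an SD of 0.39, the 9th largest of 926.

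Genes of large WT spread were not all stress genes. After hsp16, the largest SDs were those of snoU14 (0.53, 3 probes), the enolase gene eno101 (0.49), SPBC32H8.15 (0.47), SPBTRNALEU.06 (0.43, 2 probes), rbd3 (0.41), SPBTRNAILE.08 and SPBTRNAILE.05 (0.41 each, 2 probes), lsd90 and ish1. At eno101 the levels were 0.60, 0.38 and -0.34 on the WT arrays, 0.88 for amo1D, -1.39 for rix1E414K and 0.06 for pob3D, and WT replicate 3 and rix1E414K were the 2 lowest arrays, as at hsp16.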

How the data were processed

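Per the file headers, the authors used Agilent Feature Extraction 12.0.3.1 (background removed after spatial detrending, then linear scaling of the dyes) and deposited the processed signal of each channel as a linear intensity. The series table the authors deposited is the linear ratio of these signals, Cy5 over Cy3, with relative differences up to 9.05e-09. The 1227 control spots and spots marked as outliers were removed, log2 ratios were taken and each array was centred on its median probe, with no loess or quantile step, so a shift common to all probes could not be seen.

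The 6 genes and the lists were chosen with earlier results of these data known. The array files name no build. Array positions on chromosome II were aligned to ASM294v3 through the GC content under the probes: the array numbering runs ahead by 900 bases up to 1617470 and by 1800 bases from 1618511, within 15 bases in 23 of 23 windows. Genes come from the RefSeq annotation of that assembly, without its 1204 long noncoding RNA genes, and only the tiled stretch of 40975 probes from 1000011 to 3049820 was used, because the other tiled parts hold none of the 6. The gene limits are those annotated, and the coding sequence alone was an alternative. Repeated matches were found with blastn 2.17.0. Windows of the body and of the 500 upstream bases needed at least 2 probes and entered a linear model per genotype over all arrays (limma 3.58.1, R version 4.3.3), tested on simulated data with known changes.

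Beside the 6 genes, the text names amo1, each gene's flanking protein-coding genes, the 3 genes most like it, the members of each list with the widest range over the arrays (3 at most), and the 10 genes of largest SD in WT. The other chaperone genes sks2 and cdc37 were named after their values were seen. Upstream motifs were counted in ASM294v3, and the GAANNTTC and TTCNNGAA pairs were added after the first search. Alternatives changed the background, scaling, normalization, probe filters, summary and replicates. The planned mean spot signals are not used here, and median spot signals took their place. The number of arrays limits the precision.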

Additional observations from a re-analysis of the deposited data

How the results depend on the processing

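Of 501 differences of a mutant from WT at the 6 genes under another setting, 478 moved by less than the SD among the WT arrays. The sign differed in 23, and in 1 of these the mutant had lain outside the WT range: trx2 upstream in rix1E414K, from -0.36 to 0.17 with normexp. The 478 overstates stability, because some settings hardly touched these genes. Keeping outlier spots or only probes well above background left the differences almost unchanged. Probes of 1 match changed only those of the ubi4 body, and upstream probes in no other gene changed none. At hsp16 the SD was 1.15, so the pob3D body difference counted as unmoved when it went from 0.32 to -0.33. Of 60 recomputed WT SDs, 56 stayed within 1.5 times of their value. The 4 others were those of ish1 (0.24) and ubi4 (0.20) with quantile normalization, of ubi4 (0.19) with arrays scaled to equal spread and of trx2 (0.09) over coding sequence alone. That of hsp16 ranged from 0.81 with normexp to 1.31 with equal scaling. The counts of genes called by limma were not stable. In the body, where 0 were called, leaving out each WT replicate gave 0 to 9 for amo1D, 0 to 4 for rix1E414K and 0 to 3 for pob3D. Upstream it gave 0 to 1 for amo1D, 0 to 22 for rix1E414K and 0 to 5 for pob3D, against 1, 17 and 2. For amo1D upstream, the count was 14 with the median of probes, 22 with no background subtraction, 14 with normexp, 4 with probes in no other gene, and 0 with loess, with probes of 1 match or with equal scaling. For rix1E414K upstream, it was 35 with no background subtraction, 39 with normexp, 6 with probes of 1 match, 5 with quantile normalization, 1 with equal scaling and 0 with loess. For pob3D upstream, it was 5 with the median of probes, 10 with no background subtraction, 4 with normexp, 6 with quantile normalization, and 0 with loess, probes of 1 match or equal scaling. The cause was not tested. No paired analysis was possible because, with the slide as a term, no residual degrees of freedom remain for a test, and the mutants carry no replicate numbers. The differences within a slide are values with no test.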
